A study of Rattus norvegicus with 9 samples.

Results

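The comparison set 3 male rats that had been separated from their mothers and left untreated (MS; rats B3, B4 and B6) against the other 6 rats of the series taken as 1 group, namely 3 Control rats (A1, A2 and A6) and 3 MS+EA rats (C3, C10 and C16). It asked which genes of the frontal cortex stood apart only in untreated separated rats, where undisturbed and treated rats had like levels. All 9 of the 9 rats of the series entered it, and 16837 of the 37209 genes in the count table passed the filter on low counts and were tested. The rats were 14 weeks old and, per the study's methods, Wistar. MS litters were kept from their mothers for 4 h a day from postnatal day 1 to 21, MS+EA rats had the same separation and then acupuncture under anaesthesia at the points Baihui and Yintang every other day from postnatal day 61 to 81, and Control litters were left undisturbed until weaning. The methods state that needles in the MS+EA rats carried an electrical current, that Control and MS rats received the anaesthesia alone, and that the sham-needled rats of the study were not sequenced. So the treated rats differed from the MS rats by needle and current together, and which litters the rats came from is not given in the sources used here.

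Maternal separation is a model of early-life stress in rodents, and the prefrontal cortex is a region whose neurons take part in the control of mood and of the hormonal stress response. Many of the genes that led the ranking below belong to the circadian clock, a loop of transcription factors present in most cells. The proteins Clock and Bmal1 (gene Arntl) bind DNA elements called E-boxes and drive Per, Cry, Nr1d1, Nr1d2, Dbp and Ciart, the Per and Cry proteins block that drive, and Nr1d1 and Nr1d2 repress Arntl, so that Arntl and Nfil3 peak at about the opposite time of day from Dbp and the Per genes. Dbp and its relative Tef activate genes through D-boxes, at which Nfil3 acts as a repressor.

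The promoters of 3 of these clock genes are shown because they hold the elements through which the loop works. Each is the stretch from 250 bases before to 50 bases after the annotated start in RefSeq, build GRCr8, written 5' to 3' on the gene's own strand. Capitals mark matches to the E-box CACGTG, to its variant CACGTT and to the D-box written as TTATGTAA or TTACGTAA, each searched on both strands. The sequences lie at chr2:186112197-186112496 on the minus strand for Ciart, at chr10:84229405-84229704 on the minus strand for Nr1d1 (the 1 of its windows with an E-box) and at chr9:99496944-99497243 on the minus strand for Per2.
Ciart: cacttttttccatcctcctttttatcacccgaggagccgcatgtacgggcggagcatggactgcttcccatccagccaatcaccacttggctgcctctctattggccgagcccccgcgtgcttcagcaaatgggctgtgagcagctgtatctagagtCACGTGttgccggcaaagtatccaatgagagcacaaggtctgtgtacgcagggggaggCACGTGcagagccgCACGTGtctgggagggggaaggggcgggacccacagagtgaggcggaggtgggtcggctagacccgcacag
Nr1d1: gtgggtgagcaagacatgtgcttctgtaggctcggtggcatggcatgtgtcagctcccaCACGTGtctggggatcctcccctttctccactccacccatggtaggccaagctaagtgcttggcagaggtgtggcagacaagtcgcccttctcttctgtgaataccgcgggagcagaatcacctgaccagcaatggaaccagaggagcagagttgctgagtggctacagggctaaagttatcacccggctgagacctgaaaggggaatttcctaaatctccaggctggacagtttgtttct
Per2: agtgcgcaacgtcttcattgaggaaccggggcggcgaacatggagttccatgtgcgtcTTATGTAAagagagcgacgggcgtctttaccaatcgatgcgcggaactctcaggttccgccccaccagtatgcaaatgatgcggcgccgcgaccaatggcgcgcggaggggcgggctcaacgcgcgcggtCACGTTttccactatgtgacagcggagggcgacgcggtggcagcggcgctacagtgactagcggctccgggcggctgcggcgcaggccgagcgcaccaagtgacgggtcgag
Ciart held 3 E-boxes, which began at positions -93, -35 and -21 from the start. Nr1d1 held 1 at position -191, and Per2 held the variant at -62 and a D-box at -192. Of the 33469 promoter windows of the RefSeq table, 6.42% held the E-box, 4.83% the variant and 1.01% the D-box. Among the 16 clock genes tested, 15 had a window. Nr1d1 and Clock had more than 1, and the window of Nr1d1 not shown held the variant at -174. The shares above are of windows, while the counts that follow are of genes. Of the 11 genes that share the phase of Per, 5 held the E-box (Tef, Nr1d1, Ciart, Bhlhe40 and Bhlhe41), whereas Dbp and Per3 held none of these letters in the window, and none of the Arntl-phase genes with a window did. A match is a stretch of letters and not a measured binding site.

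The libraries held 16153292 to 19007907 reads on genes in the Control rats, 16106381 to 17243320 in the MS rats and 12479905 to 14913736 in the MS+EA rats, so the MS+EA values rest on the fewest reads. Cortical neuron markers such as Slc17a7 and Camk2a were summed in CPM (read counts scaled to a library of 1000000 reads on genes). The sums were 6642 to 7542 CPM in Control rats, 7026 to 7493 CPM in MS rats and 6045 to 6875 CPM in MS+EA rats. Every MS+EA rat was thus below every MS rat, while the MS+EA and Control ranges overlapped. MS rat B4 stood apart from every other rat. Its summed level of 8 genes of the meninges, the sheath around the brain, was 479.3 CPM against 257.2 or less elsewhere. Its summed level of 13 genes of hypothalamus and brainstem was 61.9 CPM against 9.94 or less elsewhere, and choroid plexus genes summed to 20.9 CPM against 7.15 or less. The medians of these lists with and without rat B4 are given with the lists below. A bulk sample cannot tell fewer cells of a type from less RNA per cell.

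No gene passed an adjusted p of 0.05 together with a fold of 1.5 in the pooled comparison (0% of 16837 genes, edgeR's quasi-likelihood test with Benjamini-Hochberg adjustment), so no gene met the full definition of a change found in MS rats only. The smallest adjusted p in that edgeR test was 0.286, for Dbp. At an unadjusted p under 0.05 stood 803 genes, or 4.77% of those tested, of which 386 (2.29%) were higher and 417 (2.48%) lower in MS rats. The 3 MS rats lay outside the range of the other 6 for 378 genes (2.25%), 188 above (1.12%) and 190 below (1.13%). Without rat B4, 421 genes (2.45%) had an unadjusted p under 0.05. DESeq2 called 10 genes by the same thresholds (0.0603% of the 16595 to which it gave an adjusted p), Ucp3, LOC102555167, Cd93 and RT1-O2-ps higher, and Dbp, Per3, Ciart, Cplx3, Syt6 and Abcg2 lower, and it gave 890 genes (3.43% of 25934) an unadjusted p under 0.05. In edgeR with a mean for each group in place of 1 for the pool, 2 genes were called (0.0119%), Dbp and LOC100360791, the latter at Control levels of 42.9 to 55.9 CPM and at 4.69 to 6.20 CPM in both separated groups.

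The other 2 ways of setting 1 group against the remaining 6 rats gave more. With Control rats against the others, 63 genes were called (0.374%), 2766 (16.4%) had an unadjusted p under 0.05 and 1495 (8.88%) did not overlap. With MS+EA rats against the others, 1 gene was called (0.00594%), 3066 (18.2%) had an unadjusted p under 0.05 and 1675 (9.95%) did not overlap. The MS rats thus had the smallest share of genes apart from the rest in these data, though the 3 splits use the same rats and their difference was not tested. The range and spread of the pool set against MS rats include the difference between Control and MS+EA rats, given next. The part of that difference in these counts was not tested. Between the 2 groups that were pooled, 230 genes differed (1.37%), 210 higher in MS+EA rats and 20 lower. MS rats differed from Control rats by 4 genes (0.0238%), with Acsm3, Slco1a2 and ATP8 higher and LOC100360791 lower, and from MS+EA rats by 3 genes (0.0178%), Dbp, Per3 and Hist2h4a, all lower. These 2 comparisons share the MS rats. An unadjusted p under 0.05 on the same side in both was reached by 198 genes (1.18%).

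Control and MS+EA rats were taken to agree on a gene where the 95% interval of their difference (limma) lay within a fold of 1.5 either way. That held for 9500 genes (56.4%), for 63.2% of protein-coding genes but for 13.0% of non-coding ones. Agreement together with no overlap was found for 252 genes (1.5%), and with a fold over 1.5 added, for 13 genes (0.0772%), 4 higher and 9 lower in MS rats. Of these 13 genes, 9 had a mean under 10 CPM and 3 were clock genes, Dbp, Per3 and Per2. Non-coding genes leaned to the lower side, with 114 of 2146 (5.31%) lower and 34 (1.58%) higher at an unadjusted p under 0.05, where protein-coding genes had 300 (2.06%) lower and 351 (2.41%) higher. The share of reads on non-coding genes was 1.70 to 1.85% in MS, 1.62 to 1.81% in Control and 1.90 to 2.13% in MS+EA rats, and the part of that in the count was not tested.

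**Figure D1:**
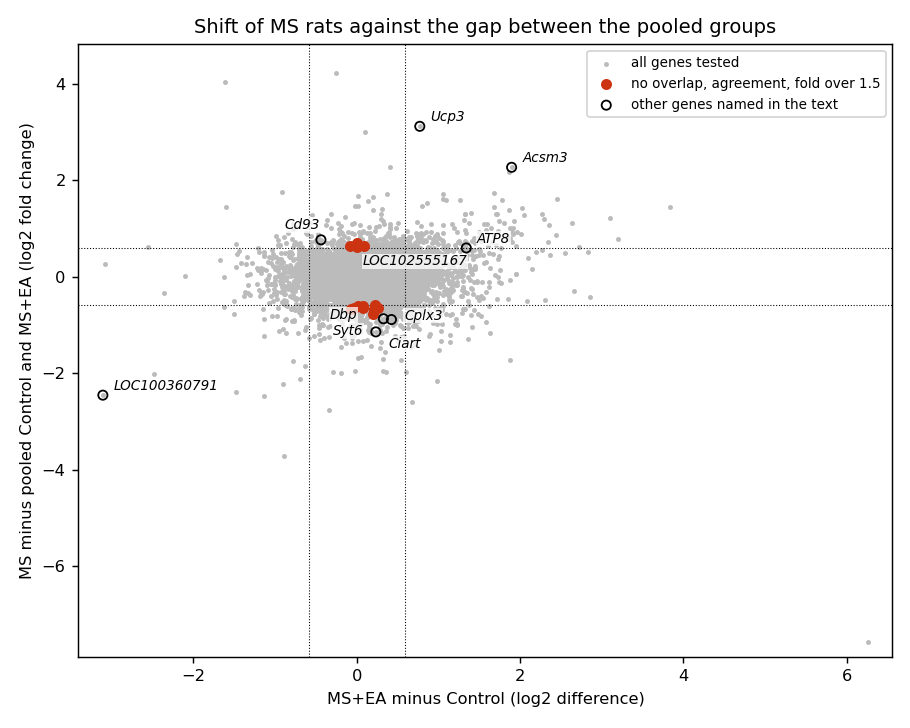
Each grey point is 1 of the 16837 genes tested, with the log2 difference of MS+EA from Control rats on the horizontal axis and the log2 fold change of MS rats from the other 6 on the vertical axis, and the dotted lines mark a fold of 1.5. Red points are the 13 genes with no overlap, agreement and a fold over 1.5, which lie in the narrow middle columns above and below the lines, while ATP8, Acsm3 and LOC100360791 lie far to the sides, where the pooled groups differ.

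Clock genes of the Per phase stood lower in MS rats as a group. Of 11 tested, 9 were lower at an unadjusted p under 0.05 (background 2.48% of all genes), 5 had MS rats below all 6 others (background 1.13%), and the median log2 fold change was -0.40 against 0.00217 over all genes tested. None passed the adjusted threshold in edgeR. The study's text names Dbp, Per2, Per3 and Arntl from these same rats. The counts for this list and for the opposite phase below were therefore in part known beforehand. The summed level of these genes was 881.9 to 927.2 CPM in MS rats and 1049 to 1300 CPM in the other 6. With any 1 rat left out, 7 to 9 genes of the list were lower at an unadjusted p under 0.05. Control and MS+EA rats agreed on 10 of the 11, all but Ciart.

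Dbp, the D-box activator that is among the strongest oscillating output genes of the clock, headed the ranking of all genes. It was at 97.6, 83.4 and 110.1 CPM in Control rats, 62.9, 60.0 and 60.8 CPM in MS rats and 99.9, 102.3 and 131.6 CPM in MS+EA rats. The MS rats lay within a narrow band below every other rat, with means of 61.3 ± 1.5 CPM (SD, n = 3) against 104.1 ± 16 CPM (SD, n = 6). Its log2 fold change was -0.76 with a standard error of 0.12. The exact two-sided permutation p over the 84 ways to take 3 of 9 rats was 0.0238, the smallest they can give and the value that any gene without overlap has, so it adds nothing to the ranking. MS+EA minus Control was 0.19 on the log2 scale (95% interval -0.05 to 0.44). The adjusted p was 0.286 in edgeR's pooled test, 4.6e-06 in DESeq2 and 0.0498 in edgeR with a mean for each group, and it reached 1 in edgeR without MS rat B4 or without B6, at log2 fold changes of -0.75 and -0.76. Against MS+EA rats alone edgeR gave Dbp an adjusted p of 0.047.

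Per3 and Per2 encode period proteins, the repressor side of the loop. Per3 was at 52.4, 57.6 and 66.2 CPM in Control, 44.0, 39.3 and 39.7 CPM in MS and 77.3, 61 and 72.5 CPM in MS+EA rats. It did not overlap, and its log2 fold change was -0.65 ± 0.12 (SE), with an adjusted p of 0.449 in edgeR and 0.00095 in DESeq2. Per2, whose promoter carries the E-box variant and the D-box shown above, was at 63.5, 75.4 and 103.3 CPM in Control, 55.1, 58.4 and 59.5 CPM in MS and 86.2, 79.0 and 115.4 CPM in MS+EA rats. The lowest Control rat and the highest MS rat were close to each other for Per2, and its log2 fold change was -0.59 ± 0.16 (SE), with an adjusted p of 0.984 in edgeR.

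Nr1d1 encodes Rev-erb alpha, the repressor of Arntl. It was at 91.7, 80.8 and 84.8 CPM in Control, 61.4, 61 and 63.4 CPM in MS and 93.5, 79.7 and 72.3 CPM in MS+EA rats, with no overlap and a log2 fold change of -0.44 ± 0.09 (SE), with an adjusted p of 0.592 in edgeR. Its DESeq2 adjusted p was 0.0106, but the fold of 1.35 kept it from being called. Ciart, which encodes a repressor of the Clock and Bmal1 pair and carries 3 E-boxes in the promoter shown, was at 7.92, 9.82 and 14.6 CPM in Control, 5.77, 4.57 and 5.47 CPM in MS and 8.60, 14.7 and 14.6 CPM in MS+EA rats. All MS rats lay below the others, and its log2 fold change of -1.14 ± 0.23 (SE), with an adjusted p of 0.592 in edgeR was the lowest of the clock genes. Its level ranged from 7.92 to 14.7 CPM over the pooled rats, and agreement could not be shown (MS+EA minus Control 0.23, 95% interval -0.29 to 0.76).

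The other members of the Per phase overlapped between groups. Nr1d2, the sister of Nr1d1, was at 122.2, 122.5 and 137.5 CPM in MS rats against 136.6 to 195.9 CPM in the others (log2 fold change -0.35), so 1 MS rat reached into the Control range. Bhlhe41, a repressor that competes for E-boxes, had a log2 fold change of -0.33, Per1 of -0.40 and the deubiquitinase gene Usp2 of -0.22, each with an unadjusted p under 0.05. The value of Per1 was -0.25 without Control rat A6 and -0.32 without MS rat B4. Tef (-0.05) and Bhlhe40 (-0.16) did not reach it.

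Genes listed with the opposite phase stood in part on the other side. The list also holds Cry1, although Cry is named above among the genes driven through E-boxes. Of 5 genes tested, 3 were higher at an unadjusted p under 0.05 (background 2.29%), 2 without overlap (background 1.12%), and their median log2 fold change was 0.22. Their summed level was 403.3 to 425.5 CPM in MS rats and 333.8 to 385.2 CPM in the other 6. Arntl was at 47.6, 42.7 and 37.7 CPM in Control, 53.4, 56.1 and 57.5 CPM in MS and 39.2, 29.2 and 27.3 CPM in MS+EA rats. Its MS rats lay above all others with a log2 fold change of 0.57 ± 0.15 (SE), with an adjusted p of 0.984 in edgeR, but the 2 pooled groups did not agree (MS+EA minus Control -0.43, 95% interval -0.70 to -0.15). Nfil3 was at 5.62, 8.90 and 7.09 CPM in Control, 11.1, 9.88 and 10.2 CPM in MS and 8.26, 8.18 and 4.93 CPM in MS+EA rats. It had no overlap and agreed between the pooled groups, with a log2 fold change of 0.54 ± 0.18 (SE), with an adjusted p of 0.994 in edgeR. Clock (0.22) overlapped with 1 MS+EA rat, and Npas2 (0.01) and Cry1 (0.03) had values near 0. The hour at which each rat's tissue was taken is not given in the sources used here, and its part in the levels of these time-of-day genes was not tested.

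**Figure D2:**
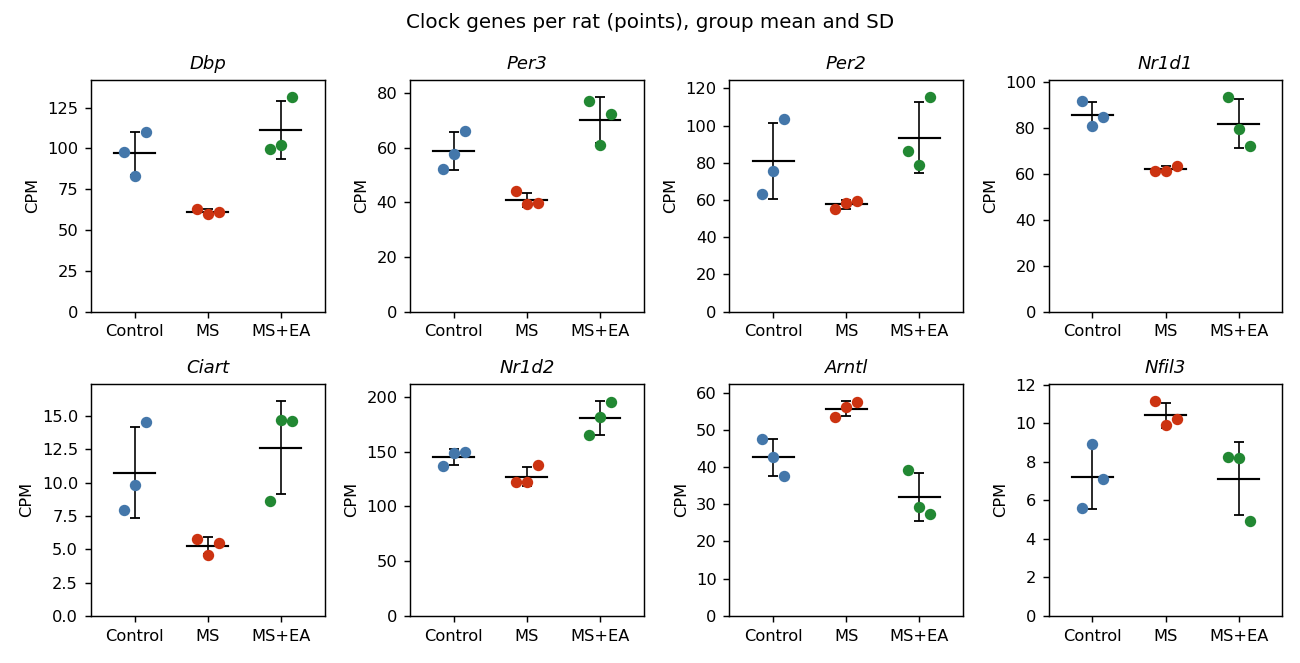
Levels of 8 clock genes in CPM (vertical axis) for each rat (points) of the Control, MS and MS+EA groups, with the mean (bar) and SD (whisker) of 3 rats. The MS rats lie below all others for Dbp, Per3, Per2, Nr1d1 and Ciart and above all others for Arntl and Nfil3, while Nr1d2 overlaps.

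Beyond the clock, 10 genes had no overlap, agreement of the pooled groups and a fold over 1.5, and their values did not pass the adjusted threshold in edgeR. On the higher side, LOC102555167 was at 7.71, 7.01 and 8.27 CPM in Control, 13.8, 11 and 10.2 CPM in MS and 7.56, 6.70 and 7.39 CPM in MS+EA rats. Its 6 pooled rats were close together while rat B3 was the highest of the MS rats, and the log2 fold change was 0.65 ± 0.13 (SE), with an adjusted p of 0.592 in edgeR and 0.0492 in DESeq2. Gimap6, of a family of GTPases known from lymphocytes, was at 2.86 to 3.85 CPM in MS rats and 1.93 to 2.5 CPM in the others (log2 fold change 0.63). LOC102546764, listed as Cmc4 in RefSeq, had a log2 fold change of 0.69, and LOC654482, listed as the cilium gene Cfap300, of 0.61.

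On the lower side, Sulf1 is described with the deep-layer genes below. Cfap46, another gene of cilia, was at 2.51, 1.94 and 1.98 CPM in MS rats and 2.94 to 3.67 CPM in the others (log2 fold change -0.65). Styxl1, which encodes a phosphatase-like protein without catalytic activity, was at 3.03, 2.5 and 3.43 CPM in MS rats and 3.48 to 5.90 CPM in the others (log2 fold change -0.65), so its highest MS rat and lowest MS+EA rat nearly touched. The non-coding genes LOC102554754 and LOC103692430 had log2 fold changes of -0.66 and -0.62. LOC100362333 (-0.60) is listed as a pseudogene of Pole3 in RefSeq, and reads from the parent gene cannot be told apart from its own here. The largest unadjusted p among the 13 genes was 0.022, for LOC654482.

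Ucp3, which encodes a mitochondrial carrier best known from muscle and brown fat, had the widest fold of the genes called by DESeq2. It was counted with 43, 22 and 23 reads in the MS rats, 2, 4 and 0 in the Control rats and 1, 6 and 5 in the MS+EA rats. Every MS rat was above every other rat, with 1.76 ± 0.651 CPM (SD, n = 3) against 0.203 ± 0.172 CPM (SD, n = 6) and a log2 fold change of 3.12 ± 0.55 (SE), with an adjusted p of 0.449 in edgeR and 0.00284 in DESeq2. The counts in the pooled groups were too low to show agreement (MS+EA minus Control 0.77, 95% interval -0.43 to 1.97). Acsm3, a medium-chain acyl-CoA synthetase gene, had 249, 127 and 278 reads in MS, 12, 24 and 12 in Control and 17, 96 and 79 in MS+EA rats. MS rats did not overlap with the others, but MS+EA rats C10 and C16 stood between them and the Control rats, so the pooled groups did not agree (MS+EA minus Control 1.90, 95% interval 0.74 to 3.05).

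Genes of cortical layers 6 and 6b, the deepest layers, leaned to the lower side. Of 11 tested, 4 were lower at an unadjusted p under 0.05 (Cplx3, Syt6, Sulf1 and Nxph3, background 2.48% of all genes), 3 did not overlap (background 1.13%), and the median log2 fold change was -0.52. The study's text names Cplx3 and Syt6 from these same rats, so the counts for this list were in part known beforehand. With any 1 rat left out, again 4 genes of the list were lower at that p, but the median was -0.295 without MS rat B4 and -0.287 without Control rat A2. Cplx3, a complexin that acts at the release of synaptic vesicles and marks layer 6b, was at 6.85, 7.87 and 5.72 CPM in Control, 4.26, 3.94 and 4.69 CPM in MS and 8.74, 8.18 and 10.6 CPM in MS+EA rats. MS rats were below all others, with a log2 fold change of -0.89 ± 0.19 (SE), with an adjusted p of 0.915 in edgeR and 0.0456 in DESeq2. MS+EA rats were above Control rats by 0.42 on the log2 scale (95% interval 0.04 to 0.80), so Cplx3 did not meet the agreement.

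Syt6, a synaptotagmin of layer 6 neurons, was at 8.14, 9.09 and 8.58 CPM in Control, 6.88, 4.57 and 4.51 CPM in MS and 10.3, 8.91 and 13.7 CPM in MS+EA rats. It did not overlap, its log2 fold change was -0.87 ± 0.20 (SE), with an adjusted p of 0.984 in edgeR and 0.0492 in DESeq2, and agreement was not shown. Sulf1, a sulfatase that trims heparan sulfate outside the cell, was at 25.3, 29.6 and 18.2 CPM in Control, 16.2, 14.8 and 18.2 CPM in MS and 33.2, 24.7 and 25.7 CPM in MS+EA rats. It met the agreement, with a log2 fold change of -0.67 ± 0.16 (SE), with an adjusted p of 0.984 in edgeR, yet MS rat B6 (18.16 CPM) and Control rat A6 (18.22 CPM) were almost level. Nxph3, a neurexin ligand, overlapped (log2 fold change -0.52, and -0.29 without rat B4). The broader layer 6 genes Tle4 (-0.07) and Tbr1 (-0.12), and Moxd1 (0.14) and Ctgf (0.07), had small values. Moxd1 and Ctgf were the 2 members of the list on the higher side, against 9 on the lower. The summed level of the list overlapped, at 255.6 to 289.5 CPM in MS rats and 269.2 to 340.1 CPM in the others.

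Endothelial genes leaned to the higher side. Of 10 tested, 4 were higher at an unadjusted p under 0.05 (background 2.29% of all genes), 2 without overlap (background 1.12%), with a median log2 fold change of 0.25. The summed level was 249.6 to 295.8 CPM in MS rats and 192.1 to 245.1 CPM in the others. Cldn5, the claudin that seals tight junctions of brain vessels, was at 49.7, 44.9 and 47.9 CPM in Control, 58.9, 60.9 and 55.4 CPM in MS and 50.7, 47.0 and 49.2 CPM in MS+EA rats. It had no overlap and met the agreement, with a log2 fold change of 0.28 ± 0.07 (SE), with an adjusted p of 0.984 in edgeR. Cd93, a receptor of the vessel wall, was at 12.5, 16.2 and 19.4 CPM in Control, 22.5, 24.1 and 24.2 CPM in MS and 13.7, 11.1 and 10.3 CPM in MS+EA rats. Its log2 fold change was 0.76 ± 0.17 (SE), with an adjusted p of 0.984 in edgeR and 0.0473 in DESeq2, without agreement of the pooled groups. The growth factor and angiopoietin receptor genes Kdr (0.67, and 0.43 without rat B4) and Tek (0.39) overlapped. Cdh5 (-0.01) and Flt1 (0.18), which also mark these cells, did not reach an unadjusted p under 0.05. With any 1 rat left out, 4 to 5 of the 10 genes had an unadjusted p under 0.05 on the higher side. The median was 0.181 without MS rat B3, 0.276 without B4 and 0.337 without B6.

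**Figure D3:**
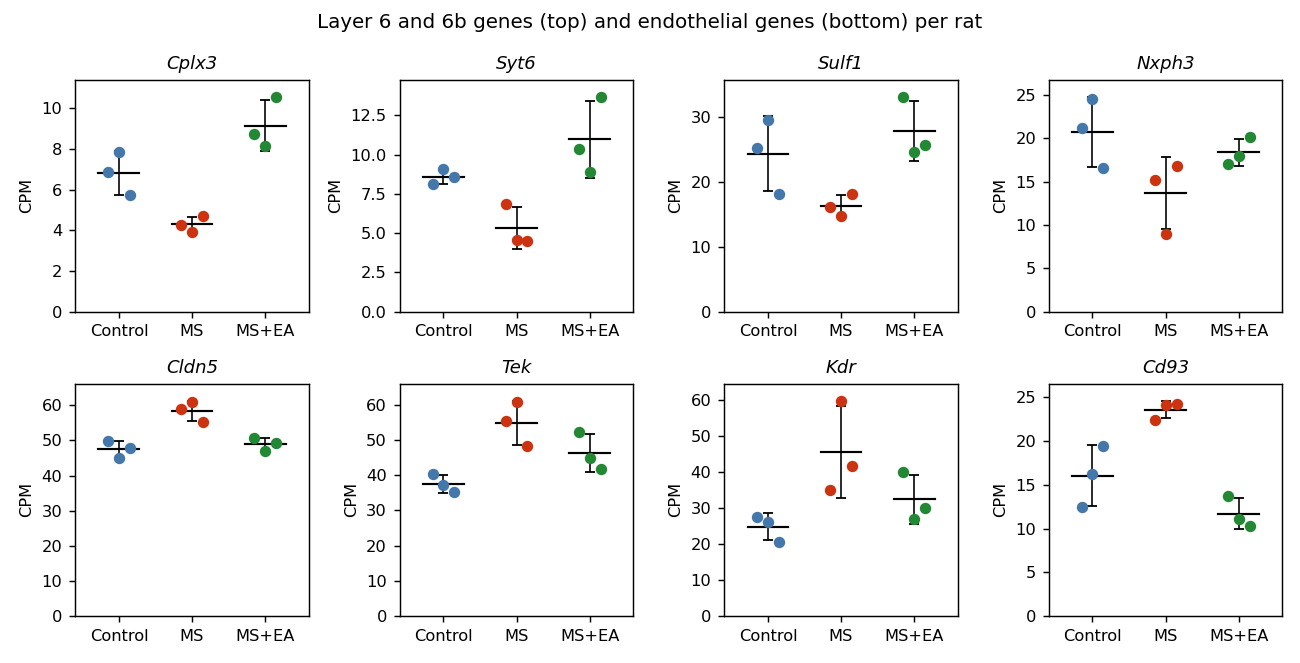
Levels of 4 genes of layers 6 and 6b (top) and 4 endothelial genes (bottom) in CPM (vertical axis) for each rat (points), with the mean (bar) and SD (whisker) of 3 rats. MS rats lie below all others for Cplx3, Syt6 and Sulf1 and above all others for Cldn5 and Cd93, and the remaining genes overlap.

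Genes of the cells that wrap vessels and of transport into the brain gave mixed values. Of 9 pericyte and smooth muscle genes, 2 were higher at an unadjusted p under 0.05 (background 2.29% of all genes), Acta2 (1.11) and Myh11 (0.72). Both were highest in rat B4, where Acta2 stood at 44.2 CPM against 13.1 and 12.1 CPM in the other MS rats. The pooled rats had 8.02 to 15.3 CPM of Acta2. Of 10 blood-brain barrier transporter genes, 2 were higher at an unadjusted p under 0.05, Slco1a2 (0.41) and Slc16a1 (0.44), a lactate and ketone carrier. Abcg2 (-1.08), a drug efflux pump, was lower (background 2.48% of all genes). Slc16a1 was at 49.6, 49.5 and 52.9 CPM in MS rats and 29.9 to 46.3 CPM in the others, without overlap and with agreement of the pooled groups. Abcg2 was at 8.81, 12.8 and 6.55 CPM in MS rats, 17.9 to 19.9 CPM in Control rats and 20.3, 31.4 and 11.2 CPM in MS+EA rats, so that rat C16 reached into the MS range.

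Among the 13 genes encoded on the mitochondrial genome, 4 were higher at an unadjusted p under 0.05 (ND3, COX1, ATP6 and CYTB, background 2.29%), with a median log2 fold change of 0.15. Rat B3 had the highest sum of them, and without it the median was 0.0966 and the log2 fold change of CYTB 0.15 in place of 0.24. Their summed level was 32830 to 38220 CPM in MS rats and 28180 to 31500 CPM in the others. COX1, a subunit of cytochrome oxidase, was the 1 member without overlap (background 1.12% of all genes), at 22550, 19500 and 19700 CPM in MS rats and 15440 to 18910 CPM in the others. ATP8 was no case of an MS-only difference, since it was at 95.2 to 132.2 CPM in Control rats but 251.4 to 343.5 CPM in MS+EA rats, close to the 288.9 to 326.4 CPM of MS rats. Of 71 nuclear-encoded respiratory chain genes tested, none had an unadjusted p under 0.05 in either direction.

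The lists of stress and synaptic genes were counted at an unadjusted p under 0.05, where 2.29% of all genes were higher and 2.48% lower. Of 13 targets of the glucocorticoid receptor tested, none reached it (median log2 fold change -0.18, turning to 0.02 without Control rat A6, -0.06 without MS rat B6 and -0.12 without MS+EA rat C16), with Fkbp5 at 35.1 to 38.0 CPM in MS rats and 29.6 to 41.4 CPM in the others. Of 7 stress axis genes, 1 was higher (Hsd11b1, 0.25), and the receptor genes Nr3c1 (0.11) and Nr3c2 (0.09) were not. Of 17 immediate early genes 1 was lower (Nr4a2, -0.71), with a median of -0.06 that ranged from -0.14 without MS+EA rat C10 to 0.12 without Control rat A6. Of 21 genes of synaptic vesicle release, 3 were higher (Cplx1, Syt2 and Unc13c) and 2 lower (Cplx3 and Syt6, the deep-layer genes above). Of the 22 glutamate receptor genes 1 was higher and 1 lower, of 14 GABA-A receptor genes 1 was higher, and of 20 monoamine receptor genes 2 were higher and 2 lower. The serotonin receptor gene Htr2a was the 1 monoamine receptor without overlap (background 1.12% of all genes on the higher side). It was at 72.0, 81.7 and 73.4 CPM in MS rats and 47.8 to 67.0 CPM in the others (log2 fold change 0.29).

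By the same unadjusted p, 2.29% of all genes were higher and 2.48% lower. Uncoupling proteins had 1 of 4 genes higher (Ucp3), acyl-CoA synthetases 2 of 10 (Acsm3 and Acsm5) and heat shock genes 1 of 12 (Hspa5, 0.25). Neurotrophin genes (8 tested), cholesterol synthesis genes (18) and proteasome subunits (37) had none at an unadjusted p under 0.05. Cytoplasmic ribosomal proteins had 1 of 76 lower, and genes named Zfp had 4 of 233 higher and 1 lower. Among the cell type lists, 1 gene each was higher for layer 5 (Parm1), upper layers (Lamp5) and astrocytes (Gjb6), none in either direction for the cortical neuron markers, interneurons, microglia and oligodendrocyte precursors, and oligodendrocyte genes had 1 of 10 lower (Mog, -0.49) with a median of -0.29 (-0.17 without MS+EA rat C3 and -0.19 without MS rat B4) and overlapping sums (2015 to 3123 CPM in MS rats, 2213 to 4502 CPM in the others). Striatal genes had 1 of 7 higher and 2 lower (Drd1 and Rgs9), and thalamic genes 1 of 5 lower (Slc17a6). Red blood cell genes had 2 of 6 higher, with sums of 270.9 to 377.2 CPM in MS rats and 119.5 to 362.7 CPM in the others. In the lists that set rat B4 apart, 1 of 8 meningeal genes (Slc6a13), 2 of 4 choroid plexus genes (Ttr and Kl) and 2 of 6 hypothalamus and brainstem genes (Oxt and Avp) were higher, and Th was lower. Without rat B4 the median log2 fold change went from 0.89 to -0.22 for the meninges, from 1.31 to 0.42 for choroid plexus, from 1.14 to 0.72 for hypothalamus and brainstem and from 0.40 to 0.19 for pericytes and smooth muscle.

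**Figure D4:**
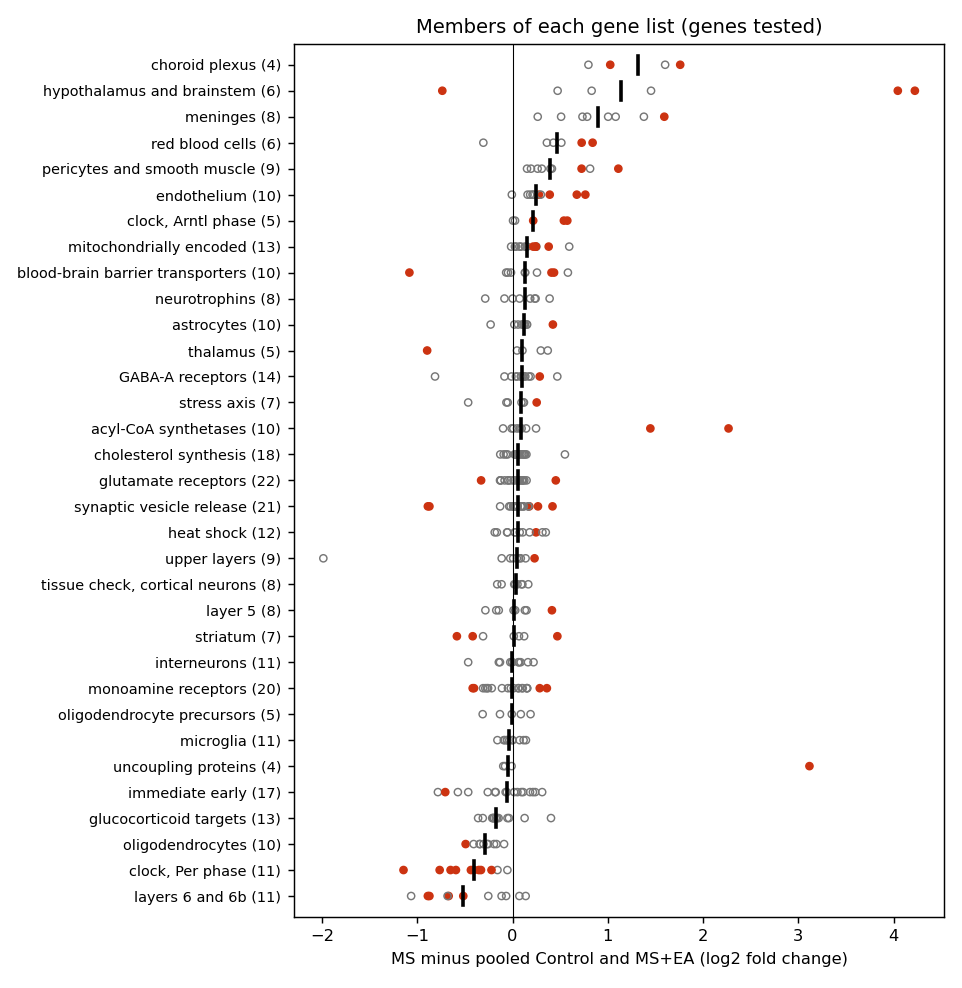
Each point is 1 gene of the list named on the vertical axis (number of genes tested in brackets), placed at its log2 fold change of MS rats from the other 6, filled red where the unadjusted p was under 0.05, and the black bars are medians. Clock genes of the Per phase and genes of layers 6 and 6b lie to the left with medians of -0.40 and -0.52, while the lists at the top, choroid plexus, hypothalamus and brainstem and meninges, are those in which rat B4 stood apart, with medians of 1.31, 1.14 and 0.89 that were 0.42, 0.72 and -0.22 without it.

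Smaller differences with tight replicates ranked beside these genes. These genes were picked with their values in view, as the 12 with the smallest p among genes with no overlap, agreement and a fold of 1.5 or less. Besides Nr1d1 and Cldn5 they were Lsm11, Ninl, Calm2, Cmtm6, Cbln2, Apcdd1 and Gpr83 on the higher side and Tnfrsf11a, Rps6kb2 and Pced1b on the lower. Lsm11, which takes part in the processing of histone mRNA, was at 101.4, 102.4 and 101.0 CPM in MS rats and 74.6 to 88.4 CPM in the others (log2 fold change 0.30). Calm2, 1 of the calmodulin genes, was at 401.2, 420.0 and 404.7 CPM in MS rats and 314.7 to 371.4 CPM in the others (log2 fold change 0.26). Cbln2, a synapse organiser, was at 89.4, 94.3 and 94.6 CPM in MS rats and 64.3 to 82.8 CPM in the others (log2 fold change 0.32). Rps6kb2, a kinase of ribosomal protein S6, was at 15.2, 16 and 14.4 CPM in MS rats and 18.4 to 22.1 CPM in the others (log2 fold change -0.39). The edgeR adjusted p was 0.984 for each of these 4 genes.

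Other genes stood highest in 1 or 2 of the MS rats, and not all of them ranked high. Avp and Oxt, the neuropeptides of the hypothalamus, had 503 and 258 reads in rat B4, whereas rats B3 and B6 had 27 and 15 reads of Avp and 14 and 4 of Oxt, and no other rat had over 29 and 25. Their log2 fold changes of 4.22 and 4.04 were 1.06 and 0.65 without rat B4. The cholinergic receptor gene Chrnb3 had 170 reads in rat B4, 15 and 25 in rats B3 and B6, 0 to 3 in Control and 21 to 58 in MS+EA rats. RT1-O2-ps, a pseudogene of the major histocompatibility complex, had 185 and 213 reads in rats B4 and B6 but 18 in rat B3, which lay among the 9 to 26 reads of the other 6. Rps2-ps2, a ribosomal pseudogene, split the rats the same way, with 76 and 87 reads in rats B4 and B6, 0 in B3 and 0 to 3 in the others, and did not pass the filter for the test of all 9 rats. Both are near copies of other genes, so which locus their reads came from is uncertain. Rab1b, which encodes a GTPase of vesicle traffic and shares its symbol with a pseudogene in RefSeq, had 202 reads in rat B3, 81 and 77 in B4 and B6 and 18 to 70 in the others.

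**Figure D5:**
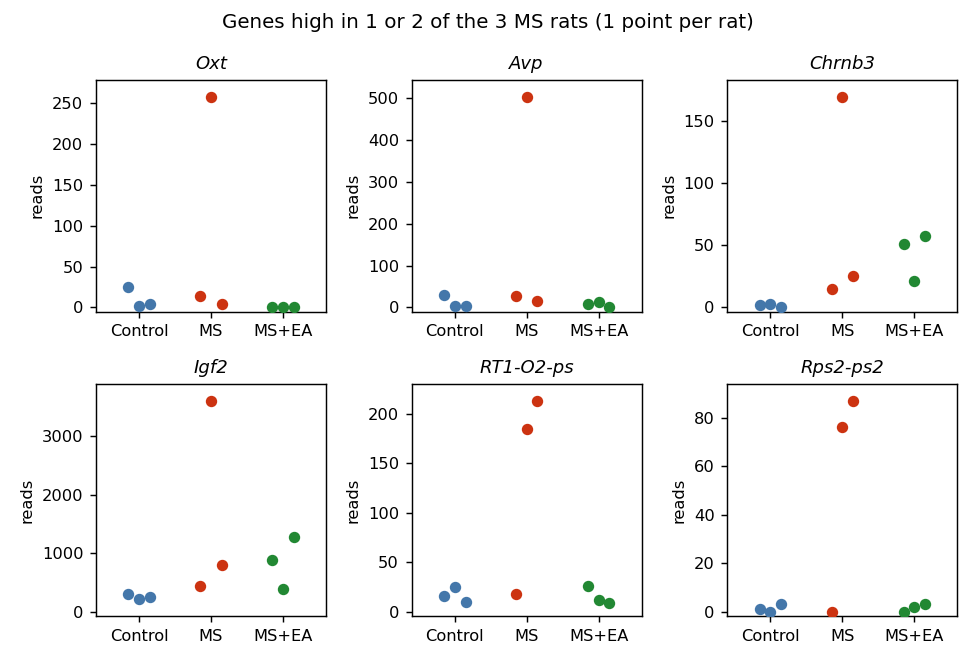
Reads counted per rat (1 point per rat, vertical axis in reads) for 6 genes in the Control, MS and MS+EA groups. A single MS rat (B4) is far above all others for Oxt, Avp, Chrnb3 and Igf2, and B4 and B6, but not B3, for RT1-O2-ps and Rps2-ps2.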

How the data were processed

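Total RNA from the frontal cortex of 9 rats was depleted of ribosomal RNA and sequenced on an Illumina HiSeq X. The authors deposited whole-number counts of reads per gene, without normalization, for 37209 genes. The submitters' processing notes name HISAT2 2.0.4 and the build Rnor_6.0. The counting program, its strand setting and its treatment of reads with several locations are not given in the sources used here. The study's EBSeq was not run, since the program was not at hand, but its thresholds were kept.

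Genes were filtered with filterByExpr (minimum count 10), scaled by TMM and fitted in edgeR 4.0.16 (R 4.3.3) by the quasi-likelihood test with a term for MS against the other 6 rats. Calls required a fold over 1.5 and p under 0.05 after Benjamini-Hochberg adjustment. Agreement of Control and MS+EA was read from limma 3.58.1 on log2 CPM (prior count 2) with a mean per group, and no overlap from CPM. Separate edgeR contrasts used a mean per group. The fits had been tested on simulated counts in which Control and MS+EA rats shared the same means. How the pooled fit behaves where these groups differ was therefore not simulated. The biological coefficient of variation was 15.1% in the pooled fit, where it includes any difference between Control and MS+EA rats. The p-values measure only the spread between these rats, which in the pooled test holds that difference too. The genes named are, by rule, up to 10 per direction with a fold over 1.5, no overlap and agreement, up to 4 members of each list, and genes that the text of the study names. Other genes, among them Rab1b, RT1-O2-ps, Per1 and Usp2, were added by hand outside this rule. The comparison and the 37 gene lists were chosen with earlier results of these data known. No set test was run. Symbols and promoters were matched to RefSeq (GRCr8), and no coordinates were converted between builds. Alternatives were DESeq2 1.42.0, limma-trend, other scalings, filters and agreement margins, a mean per group, and each rat left out. No pair of libraries was alike within sampling noise. Scripts ran on Python 3.11.15, pandas 2.3.3 and matplotlib 3.10.9.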

Additional observations from a re-analysis of the deposited data

Results flagged for a closer look

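Of 59 named genes examined in the 6 pooled rats, 2 had a rat that lay apart from the others by Dixon's criterion, and chance gives such a gap in about 1 of 20 groups. Oxt was at 1.34 CPM in Control rat A1 against 0.249 CPM in the next rat, a gap of 0.814 of the range. Th, the rate-limiting enzyme of dopamine and noradrenaline synthesis, was at 3.58 CPM in MS+EA rat C16 against 2.07 CPM in the next rat, a gap of 0.709 of the range. The MS rats were below all 6 others for Th, at 1.17 to 1.32 CPM, also without that rat.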

How the results depend on the processing

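The count of called genes depended on the test. It was 10 with DESeq2, 2 with a mean per group (Dbp and LOC100360791), 1 with a filter of at least 1 count in all rats together (Dbp) and 0 with limma-trend, other scalings, at least 10 counts in every rat and no fold threshold. Leaving out a rat gave 0 to 2, the 2 (RT1-O2-ps and Rps2-ps2) without rat B3. MS-only genes numbered 3 with DESeq2 (Dbp, Per3 and LOC102555167), and 1 (Dbp) both with a mean per group and with the filter of at least 1 count. The genes with an unadjusted p under 0.05 ranged from 421 (without B4) to 1009 (without A1). Agreement held for 3421 genes within the narrower margin tried and for 13435 within a fold of 2. MS against Control gave 69 genes with DESeq2, 207 with at least 1 count and 2 to 22 with a rat left out (22 without B3, 2 without A1 or A2). MS against MS+EA gave 13 with DESeq2, 72 with at least 1 count, 0 with at least 10 counts in every rat and 1 to 4 with a rat left out (1 without C16). MS+EA against Control gave 469 with at least 1 count and 71 to 261 with a rat left out (71 without A1, 121 without C10). The cause of these changes was not tested. Of 998 values of 59 named genes under the alternatives, 980 kept their direction and side of the threshold, 14 newly passed and 4 changed sign, Cry1 (-0.10 without B3, -0.03 without B4, -0.03 without C10, range up to 0.19 without B6) and Slc22a8 (-0.014 without B4, up to 0.84 without B3). The main test called no gene, so none could lose a call. The fold changes with no fold threshold are those of the main test, so the 980 were in part fixed in advance. Of 407 list medians 51 moved by more than the SD of that list's median over the 3 MS rats. This SD is wide where MS rats differ, so the meninges (0.89 to -0.22 without B4) did not count as moved. It is narrow where they are alike, so the Arntl phase (0.22 to 0.19 without A6) did. Genes of a few reads per rat, such as Ucp3, are limited by depth. No paired analysis was possible because MS shares 1 number with Control (rats B6 and A6) and 1 with MS+EA (rats B3 and C3), fewer than the 2 needed, and no label pairs the rats.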
